A study of Gallus gallus with 12 samples.

Results

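Transcript levels of the oxygen-sensing and hypoxia-inducible factor (HIF) pathway were described in chicken breast muscle (Pectoralis major) taken from Ross PM3 birds at day 36. The pathway was represented by 10 named genes: the oxygen sensors EGLN1, EGLN2, EGLN3 and HIF1AN, the HIF-degrading factor VHL, the transcription factor subunits HIF1A, EPAS1 and ARNT, and the targets VEGFA and ANGPTL4. A gene was taken when a row of the array, called a transcript cluster, carried exactly its symbol in the platform annotation, which gave 8 genes with 1 transcript cluster each among 20804 in all. EGLN1 and EGLN2 had no such transcript cluster and were not analysed here. The genes were listed with diet differences in these data already known, among them that of EGLN3, so their diet differences are descriptions, and nothing is read from how many of them were called.

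All birds were chickens of the same strain and age. One group was fed normally, another was fed too little phosphorus (P) and calcium (Ca), here called restricted, and the last had the restricted feed with added phytase, which frees phosphate from plant phytate. Each of the 12 Affymetrix arrays held RNA from a pool of 4 birds, and there were 4 pools per diet. The SDs below are spreads between pools, and nothing in the labels tells how birds were put into pools. The SEs come from the limma fit, which draws each spread toward that of transcript clusters of like brightness. They therefore do not follow from the SDs of a gene alone. Levels are deposited log2 values per transcript cluster, so a difference of 1 is a doubling. Levels of different genes come from different probes and were not compared with each other, except within sums over marker genes. Such sums weigh the brighter transcript clusters more.

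HIF is a transcription factor made of an alpha subunit, such as HIF1A or EPAS1, and the partner ARNT. When oxygen is present, EGLN prolyl hydroxylases mark the alpha subunit, VHL binds the mark and the subunit is degraded, while the asparaginyl hydroxylase HIF1AN blocks its coactivators. Control of the alpha subunits is therefore largely at the protein level, which arrays do not measure. When oxygen is low, HIF turns on genes of vessel growth, glycolysis and its own feedback, and EGLN3 is itself a HIF target in mammals.

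Defining transcripts of skeletal muscle were bright on all arrays, with means over the 12 arrays of 13.59 for ACTA1, skeletal actin, 11.87 for TNNT3 and 11.93 for TNNI2, both fast troponin subunits. PVALB, parvalbumin, was under the brightness limit at 2.47, and 5 of 12 listed muscle markers had a transcript cluster of that symbol. Array medians lay between 3.10 and 3.19. HINTW, a transcript of the female-specific W chromosome, was at 7.57 to 8.08 in restricted pools 1 and 2 and phytase pools 1 and 4, and at 2.27 to 2.76 in the other 8 pools, so the pools with W-linked signal were all on the restricted diet, with or without phytase. In bulk muscle, fewer cells of a type and less RNA per cell cannot be told apart. Transcript clusters were tested where their mean was at or above the 40th percentile, a log2 level of 2.67. This left 12482, among them 7 of the 8 genes. ANGPTL4, with a mean of 3.00, lay just inside the limit, and HIF1A, with a mean of 2.05, lay outside it.

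EGLN3, a prolyl hydroxylase that marks HIF alpha subunits, had the lowest levels in restricted muscle. In the normal pools it was at 5.05, 5.28, 5.35 and 5.51. In the restricted pools it was at 5.00, 4.72, 4.93 and 4.83. In the phytase pools it was at 5.66, 5.46, 5.19 and 5.37. All 4 restricted pools lay below every normal pool and every phytase pool, and the normal and phytase pools overlapped. The means were 5.30 ± 0.19 in normal, 4.87 ± 0.12 in restricted and 5.42 ± 0.20 in phytase muscle (SD, n = 4). The difference between restricted and normal muscle was -0.43 ± 0.14 (SE, log2), a level 0.744 times that of normal muscle. Between phytase and restricted muscle it was 0.55 ± 0.14 (SE), a 1.46-fold higher level, and between phytase and normal muscle it was 0.12 ± 0.14 (SE). The first and second of these comparisons share the restricted pools. By size, the EGLN3 difference stood at the top 3.41% of all tested transcript clusters between phytase and restricted muscle and at the top 5.53% between restricted and normal muscle.

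With each array left out in turn, its phytase minus restricted difference lay between 0.47 and 0.63 and its restricted minus normal difference between -0.51 and -0.36. The small phytase minus normal difference of EGLN3 was less steady, from 0.04 without normal pool 1 to 0.20 without phytase pool 3. With the 4 HINTW pools removed, a choice made after seeing the data, the 3 differences were 0.45, -0.42 and 0.03. Of the 6 erythroid markers on the array 4 were under the brightness limit, and limma called 0 of the other 2, HBA1 and HBAD. HBA1, the adult alpha globin, was at 5.95 to 6.54 in normal, 7.29 to 8.80 in restricted and 6.01 to 6.86 in phytase pools. In limma it differed by 1.48 ± 0.28 (SE, adjusted p = 0.314) between restricted and normal and by -1.30 ± 0.28 (SE, adjusted p = 0.519) between phytase and restricted muscle. HBAD differed by 1.67 ± 0.34 (SE, adjusted p = 0.368) and -1.17 ± 0.34 (SE, adjusted p = 0.519) in the same limma comparisons. The dim markers did not share one order. SLC4A1 had means of 2.145, 2.81 and 2.192 in normal, restricted and phytase muscle, and EPB42 of 2.55, 2.798 and 2.582. Both were highest in restricted muscle, like HBA1, and the restricted pools of SLC4A1 lay above all others. In the same order RHAG, a membrane protein of red cells, had means of 1.97, 1.98 and 1.94 and the globin HBE of 1.96, 2.07 and 2.12. The summed linear level of all 6, most of it from HBA1 and HBAD, ran from 228.3 to 280.7 in normal, from 510.2 to 1583 in restricted and from 222.4 to 493.6 in phytase pools. The part of blood content in the EGLN3 difference was not tested.

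**Figure D1:**
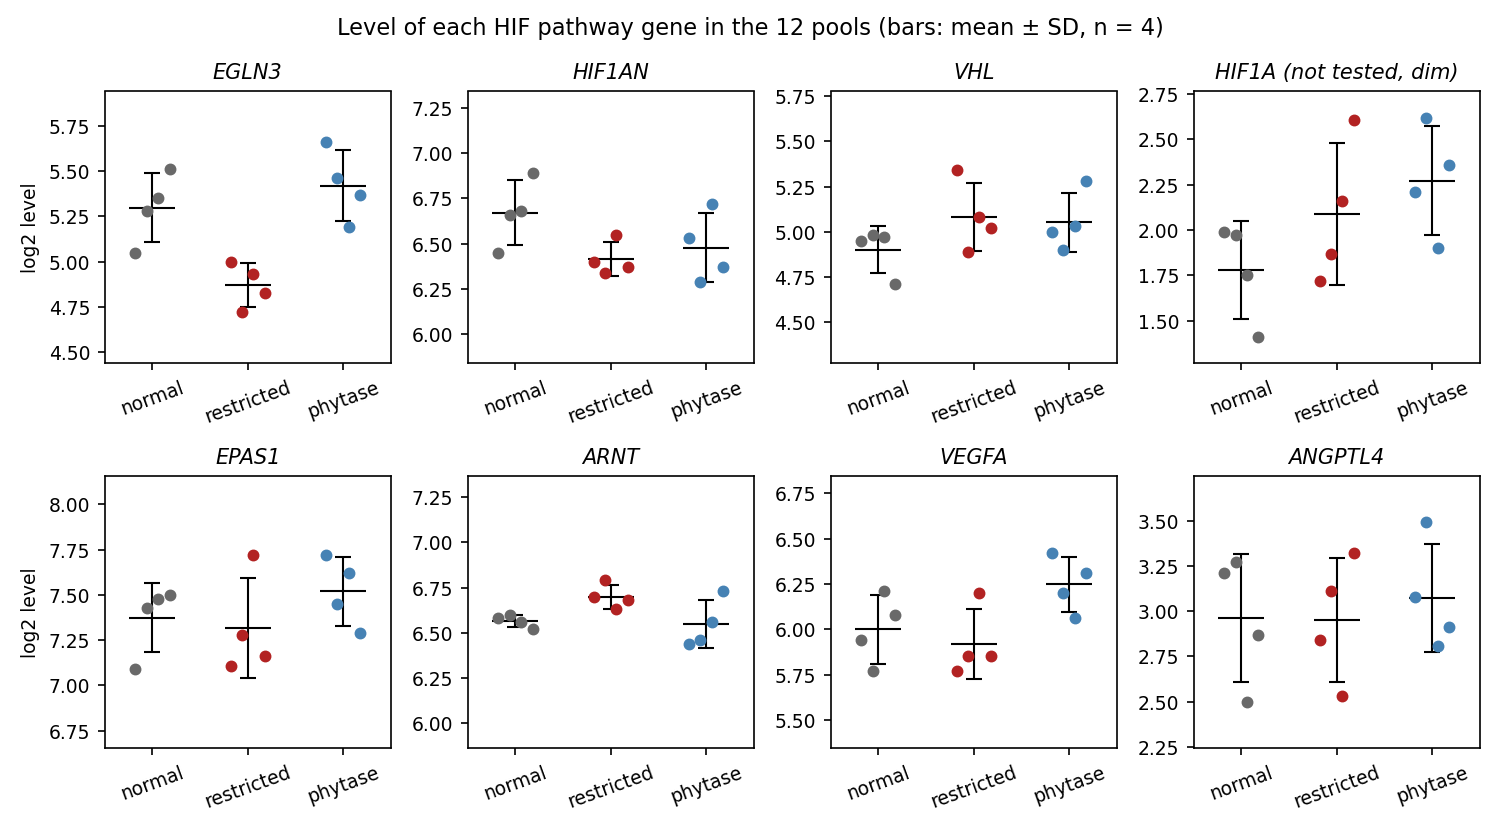
Log2 level of the 8 genes in each pool (points, pools 1 to 4 from left to right) by diet, with the mean and SD of the 4 pools (bars); every panel spans 1.5 log2 units. The restricted pools of EGLN3, at 4.72 to 5.00, lie below all other EGLN3 points, while most other genes overlap between diets.

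HIF1AN, the asparaginyl hydroxylase also called factor inhibiting HIF, was highest in normal muscle. It was at 6.45, 6.66, 6.68 and 6.89 in normal pools, 6.40, 6.34, 6.55 and 6.37 in restricted pools, and 6.53, 6.29, 6.72 and 6.37 in phytase pools. The diets overlapped, since normal pool 1 lay among the restricted pools. The means were 6.67 ± 0.18, 6.42 ± 0.09 and 6.48 ± 0.19 (SD, n = 4), and the difference between restricted and normal muscle was -0.26 ± 0.13 (SE). Phytase minus restricted was 0.06 ± 0.13 (SE) and phytase minus normal -0.19 ± 0.13 (SE), so the phytase pools sat nearer to the restricted than to the normal mean for HIF1AN. The last of these was -0.12 without normal pool 4.

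VHL, the substrate-binding part of the ubiquitin ligase that removes hydroxylated HIF alpha, was at 4.95, 4.98, 4.97 and 4.71 in normal pools. It was at 5.34, 4.89, 5.08 and 5.02 in restricted and at 5.00, 4.90, 5.03 and 5.28 in phytase pools. Normal pool 4 was the lowest of the 12 and restricted pool 1 the highest, and the diets overlapped. Differences of VHL were 0.18 ± 0.14 between restricted and normal, -0.03 ± 0.14 between phytase and restricted, and 0.15 ± 0.14 between phytase and normal muscle (SE). The first of these was 0.09 without restricted pool 1 and 0.12 without normal pool 4, and the last was 0.07 without phytase pool 4 and 0.06 without the HINTW pools.

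HIF1A, the alpha subunit of HIF-1, was dim, with all 12 values between 1.41 and 2.62, below the limit of 2.67 set on the mean for testing. Normal pools were at 1.99, 1.97, 1.75 and 1.41, restricted pools at 1.72, 1.87, 2.16 and 2.61, and phytase pools at 2.21, 2.62, 1.90 and 2.36. The mean was 1.78 ± 0.27 in normal, 2.09 ± 0.39 in restricted and 2.27 ± 0.30 in phytase muscle (SD, n = 4), and the pools overlapped in every comparison. In a fit without the brightness limit the phytase minus normal difference of HIF1A was 0.49 ± 0.20 (SE), but it was 0.10 once 16 had been added to the linear values before taking log2. Its phytase minus restricted difference of 0.18 ± 0.20 (SE) turned to -0.125 without the 4 pools with HINTW signal. A low array signal of a dim transcript cluster does not measure how much HIF1A the muscle held.

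EPAS1, the alpha subunit of HIF-2, which is known for its expression in endothelial cells, was at 7.09, 7.43, 7.48 and 7.50 in normal pools. It was at 7.11, 7.28, 7.72 and 7.16 in restricted and at 7.72, 7.45, 7.62 and 7.29 in phytase pools. Restricted pool 3 and phytase pool 1 shared the highest value, and normal pool 1 had the lowest. The means of 7.38 ± 0.19, 7.32 ± 0.28 and 7.52 ± 0.19 (SD, n = 4) lay closer together than the pools within a diet. EPAS1 differed by -0.06 ± 0.16 between restricted and normal, 0.20 ± 0.16 between phytase and restricted, and 0.15 ± 0.16 between phytase and normal muscle (SE). The second of these was 0.34 without restricted pool 3, 0.13 without restricted pool 1 and 0.095 without the HINTW pools. Without normal pool 1 the last was 0.05.

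ARNT, the partner subunit of both alpha subunits, varied least. It was at 6.58, 6.60, 6.56 and 6.52 in normal, 6.70, 6.79, 6.63 and 6.68 in restricted, and 6.44, 6.46, 6.56 and 6.73 in phytase pools. Every restricted pool lay above every normal pool, and the phytase pools spread over both. The spread within diets was small, with a pooled SD of 0.09 against a median of 0.24 over all tested transcript clusters. Only 0.817% of tested transcript clusters had a smaller pooled SD. The ARNT difference of 0.14 ± 0.11 (SE) between restricted and normal muscle was a fold of 1.10, and it was 0.09 without the HINTW pools. Phytase minus restricted was -0.15 ± 0.11 and phytase minus normal -0.02 ± 0.11 (SE).

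VEGFA, the main vessel growth factor, was at 5.94, 5.77, 6.21 and 6.08 in normal pools and at 5.77, 5.85, 6.20 and 5.85 in restricted pools. In phytase pools it was at 6.42, 6.20, 6.06 and 6.31. Phytase pools 1 and 4 lay above all other pools, while the remaining phytase pools fell within the range of the other diets. The means were 6.00 ± 0.19, 5.92 ± 0.19 and 6.25 ± 0.15 (SD, n = 4). VEGFA differed by 0.33 ± 0.14 between phytase and restricted, a fold of 1.26, by 0.25 ± 0.14 between phytase and normal, and by -0.08 ± 0.14 between restricted and normal muscle (SE). Phytase pools 1 and 4 were also the phytase pools with HINTW signal. On the restricted diet VEGFA was at 5.77 and 5.85 in pools 1 and 2, which had HINTW signal, and at 6.20 and 5.85 in pools 3 and 4. Leaving out the HINTW pools sets phytase pools 2 and 3 against restricted pools 3 and 4. Without the 4 pools with HINTW signal the phytase minus restricted difference of VEGFA was 0.105, and phytase minus normal was 0.13. The part of the sex of the birds was not tested, and no normal pool had HINTW signal.

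Endothelial markers differed between pools as well. All 10 endothelial markers on the array were above the brightness limit. Their mean deviation from the 12-array mean was -0.14 to -0.07 in normal pools and 0.05 to 0.18 in phytase pools. Restricted pools 1, 2 and 4 were at -0.174, -0.125 and -0.092, and restricted pool 3, where VEGFA and EPAS1 were highest on that diet, was at 0.23. Phytase pools 1 to 4 were at 0.173, 0.107, 0.178 and 0.047. Among them VEGFA had another order, highest in pool 1 and lowest in pool 3. EPAS1, at 7.72, 7.45, 7.62 and 7.29 in these pools, was higher in pools 1 and 3 than in pools 2 and 4, as were the endothelial values. The summed linear level of the 10 markers ran from 322.5 to 366.6 in normal, from 295.8 to 444.5 in restricted and from 360.2 to 425.5 in phytase pools. CDH5, the cadherin of endothelial junctions, was at 5.60 to 5.94 in normal and 6.02 to 6.38 in phytase pools, and PECAM1, an endothelial adhesion molecule, was at 4.01 to 4.38 and 4.25 to 4.94. In limma CDH5 differed by 0.35 ± 0.20 (adjusted p = 0.984) and PECAM1 by 0.50 ± 0.21 (SE, adjusted p = 0.984) between phytase and normal muscle. Others hardly differed there, TIE1 by -0.002 ± 0.12 and ESAM by 0.03 ± 0.18 (SE). Of the 10 markers 9 were higher and 1 lower, with 0 called, where 49.6% of all tested transcript clusters were higher. Pools were fully separate for 2 of 10, CDH5 and EGFL7 (background 3.05%). Between phytase and restricted muscle 8 were higher and 2 lower. The part of vessel content in the VEGFA and EPAS1 values was not tested.

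ANGPTL4, a secreted inhibitor of lipoprotein lipase that both HIF and PPAR factors induce in mammals, was dim and variable. Normal pools were at 3.21, 3.27, 2.50 and 2.87, restricted pools at 2.84, 3.11, 2.53 and 3.32, and phytase pools at 3.08, 3.49, 2.81 and 2.91. Every diet held both high and low pools, and the diets overlapped throughout. The means were 2.96 ± 0.36, 2.95 ± 0.34 and 3.07 ± 0.30 (SD, n = 4), and the differences were -0.01, 0.12 and 0.11, each ± 0.21 (SE), in the order restricted minus normal, phytase minus restricted and phytase minus normal. The pooled SD of 0.33 of ANGPTL4 was larger than that of 78.2% of tested transcript clusters.

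Over the 7 tested genes, limma with Benjamini-Hochberg adjustment over all 12482 transcript clusters called 0 in every comparison. The background was 0% called between restricted and normal, between phytase and restricted, between phytase and normal muscle, and over the 3 diets together. At an unadjusted p under 0.05, EGLN3 was the 1 of 7 between restricted and normal muscle (background 5.3%). EGLN3 and VEGFA were the 2 of 7 between phytase and restricted muscle (background 8.83%), and 0 of 7 lay under it between phytase and normal muscle (background 4.32%). Across the 3 diets it was EGLN3 alone, 1 of 7, against a background of 5.97%. For 2 of 7 genes, EGLN3 and ARNT, the pools were fully separate between restricted and normal muscle (background 2.32%), as they were for EGLN3, 1 of 7, between phytase and restricted muscle (3.67%), and for 0 of 7 between phytase and normal muscle (3.05%). Since the genes were listed with these comparisons known, nothing is read from these counts.

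**Figure D2:**
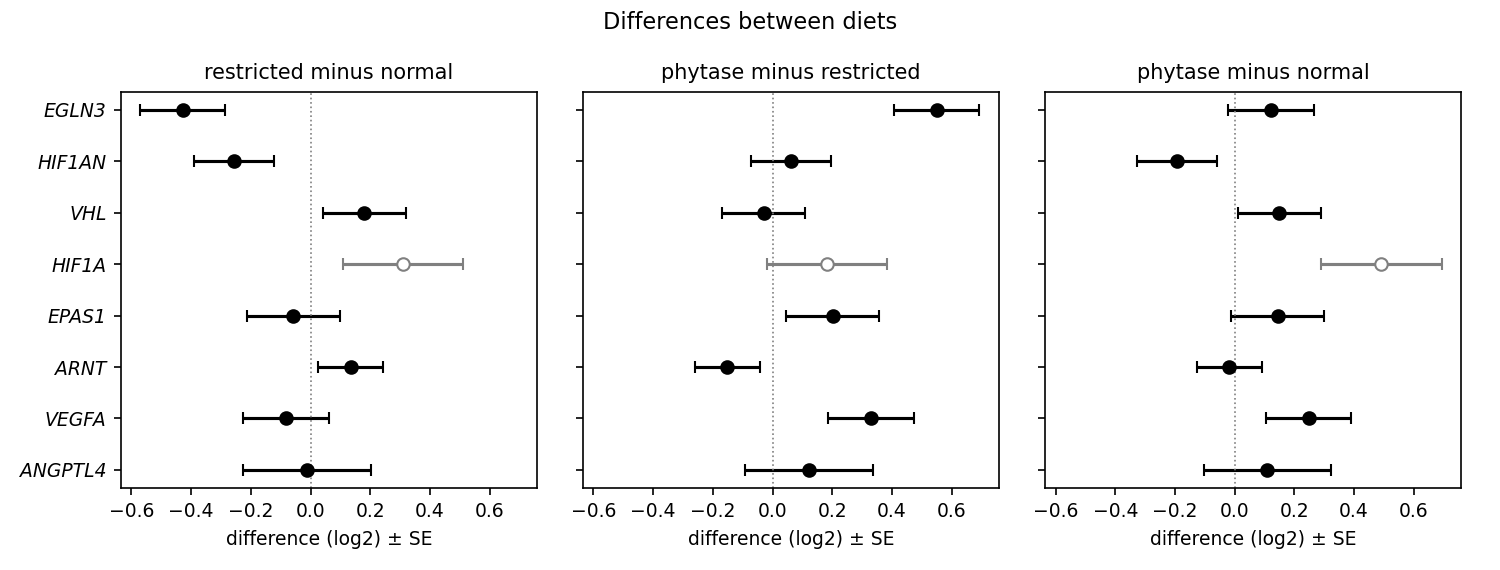
Difference in log2 level between diets for each gene, with its standard error, from the limma fit to 12 arrays; the open grey point is HIF1A, fitted without the brightness limit. EGLN3 stands at -0.43 between restricted and normal muscle and at 0.55 between phytase and restricted muscle, and the other tested genes lie between -0.26 and 0.33 in these panels.

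Among the 7 tested genes the median difference was -0.06 between restricted and normal, 0.12 between phytase and restricted, and 0.12 between phytase and normal muscle, beside medians of -0.005, -0.007 and 0 over all tested transcript clusters. Higher values with phytase than on the restricted diet alone were seen in 5 of 7 genes, EGLN3, VEGFA, EPAS1, ANGPTL4 and HIF1AN, and lower ones in ARNT and VHL. For 3 of the 7 this direction turned when 1 array was left out, with ANGPTL4 at -0.018 without restricted pool 3, HIF1AN at -0.018 without phytase pool 3 and VHL at 0.056 without restricted pool 1. Over all tested transcript clusters 48.3% were higher in that comparison.

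**Figure D3:**
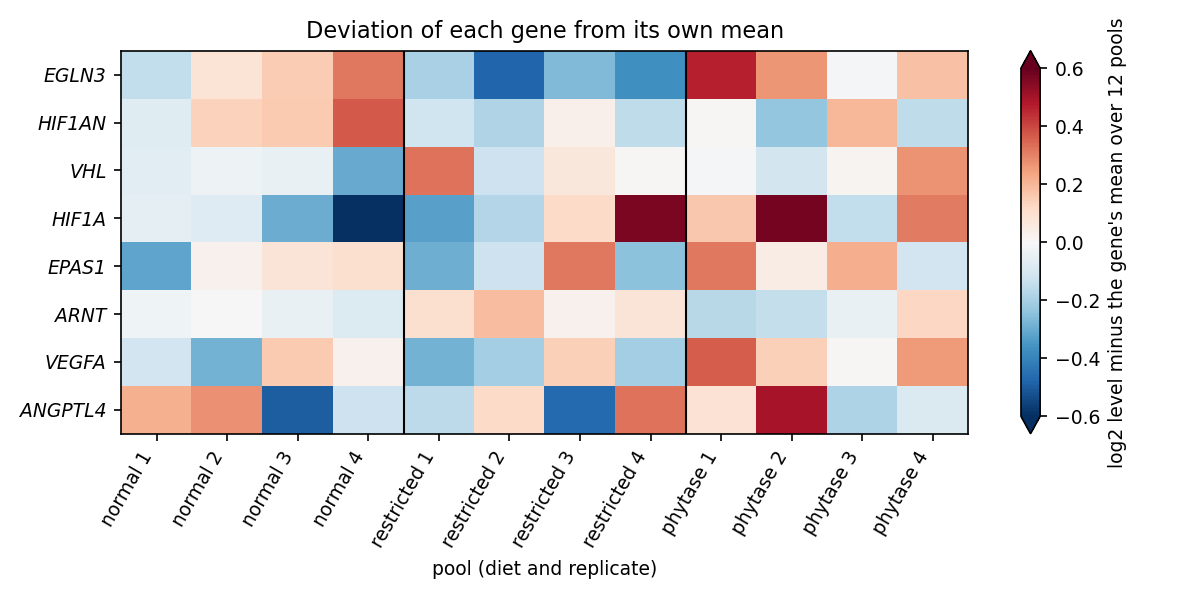
Log2 level of each gene in each pool minus the mean of that gene over the 12 pools, red above and blue below, with pools grouped by diet; values beyond 0.6 in size take the end colours. EGLN3 is below its mean in all 4 restricted pools, and HIF1A is above its mean in restricted pools 3 and 4 and phytase pools 1, 2 and 4.

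How the genes varied together was described by correlations over the 12 pools for the 21 pairs of the 7 tested genes. Since some of the genes were listed for their diet differences, which enter a correlation over all pools, the test used values with diet means removed and compared r with all 13824 reorderings of pools within diets. This two-sided exact permutation test was chosen after the data were seen. Within diets r ran from -0.604 to 0.715, and 0 of 21 pairs passed after adjustment over the 21, with 1 of 21 at an unadjusted p under 0.05. That pair was EPAS1 and HIF1AN, with a within-diet Pearson's r of 0.715 (exact p = 0.0135, adjusted p = 0.284) and Spearman's rho of 0.825 (exact p = 0.00767, adjusted p = 0.161). Their within-diet r was 0.624 without the 2 pools whose EPAS1 deviation from the diet mean lay farthest from the median deviation. It was 0.514 over all pools with diet means kept. HIF1AN and ANGPTL4 had a within-diet r of -0.604 (exact p = 0.0629, adjusted p = 0.368) and rho of -0.573 (exact p = 0.0916, adjusted p = 0.321), and r was -0.621 without the 2 farthest pools.

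EGLN3 and ARNT had r = -0.771 and rho = -0.75 over all pools, the largest r in size among the 21 pairs, as a description that includes their diet differences. Within diets their r was -0.529 (exact p = 0.134, adjusted p = 0.368) and rho -0.706 (exact p = 0.0239, adjusted p = 0.251). The within-diet r was -0.675 without the 2 pools whose EGLN3 deviation from the diet mean lay farthest from the median deviation. EGLN3 and VEGFA had r = 0.666 and rho = 0.643 over all pools. Within diets r was 0.492 (exact p = 0.14, adjusted p = 0.368) and rho 0.497 (exact p = 0.14, adjusted p = 0.373), and r was 0.375 without the 2 farthest pools. EPAS1 and VEGFA had r = 0.644 and rho = 0.618 over all pools. Within diets r was 0.551 (exact p = 0.106, adjusted p = 0.368) and rho 0.49 (exact p = 0.142, adjusted p = 0.373), and r was 0.322 without the 2 farthest pools. EGLN3 and ANGPTL4 had r = 0.013 over all pools and -0.197 within diets (exact p = 0.574, adjusted p = 0.672).

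**Figure D4:**
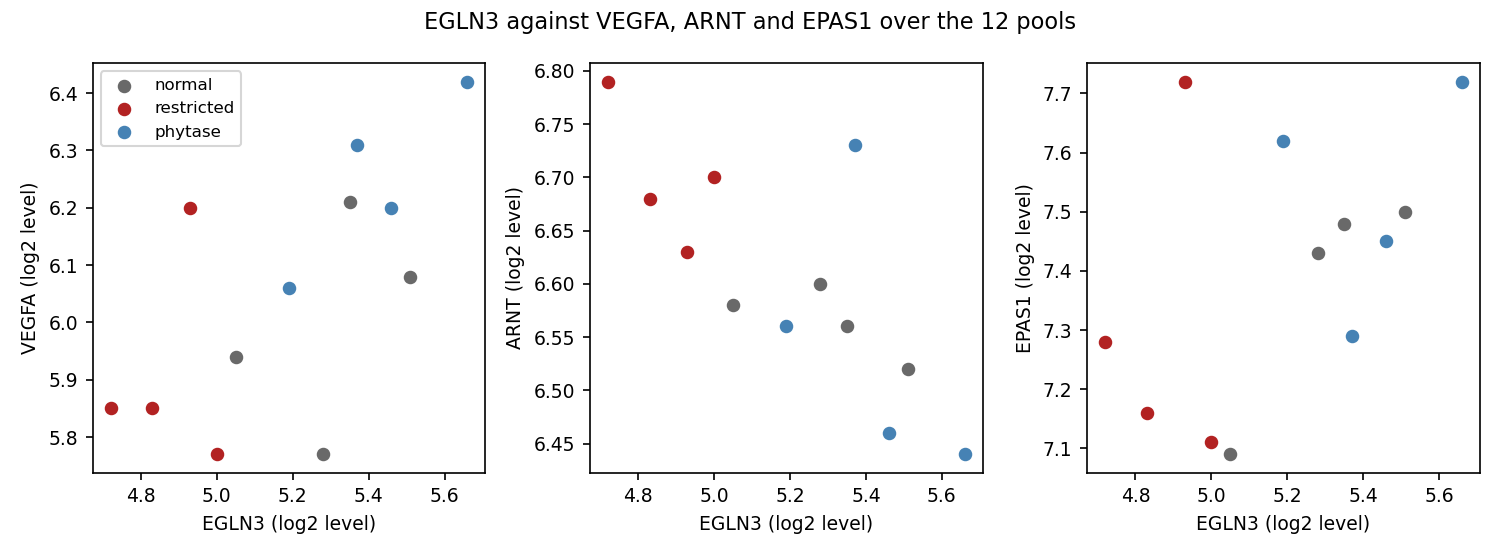
Log2 level of VEGFA, ARNT and EPAS1 against that of EGLN3 in the 12 pools, coloured by diet. The restricted pools form the left end of each panel, with EGLN3 at 5.00 or lower, and the r of 0.666 with VEGFA and of -0.771 with ARNT go to 0.492 and -0.529 when diet means are removed.

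Over the 12 pools, the tested transcript clusters of other genes with the highest Pearson r to EGLN3 were TMTC4 (r = 0.92), UTP15 (r = 0.912), CDC123 (r = 0.911) and ST13P5 (r = 0.901), out of 8402 candidates. With diet means removed the r was 0.901, 0.814, 0.715 and 0.627. Those most like VEGFA were SPECC1L (r = 0.936), HIPK3 (r = 0.931), PODN (r = 0.93) and LPAR6 (r = 0.919). Those most like ANGPTL4 were ASB6 (r = 0.867), TUBB6 (r = 0.862), APLP2 (r = 0.859) and ANXA2 (r = 0.859). These genes were picked as the highest of 8402, and the pools share diet and RNA composition, so the r values are descriptions only.

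Other genes that act on HIF were taken as a list of 28 symbols, of which 19 were on the array and 18 tested. In limma 0 of 18 were called in any of the 3 comparisons, and 3, 1 and 0 had an unadjusted p under 0.05 in the order restricted minus normal, phytase minus restricted and phytase minus normal. Over all tested transcript clusters 5.3%, 8.83% and 4.32% did, the background for each list below. The list medians of 0.05, 0.03 and 0.08 were near those of all transcript clusters. TCEB1, elongin C, which links VHL to its ubiquitin ligase, was at 5.56, 4.85, 5.69 and 5.32 in normal, 4.41, 4.71, 4.68 and 5.30 in restricted and 5.80, 5.50, 5.27 and 5.19 in phytase pools. Like EGLN3 it had its lowest mean in restricted muscle, at 4.78 ± 0.38 (SD, n = 4), but restricted pool 4 lay among the other diets. TCEB1 differed by 0.67 ± 0.22 (SE, limma adjusted p = 0.519) between phytase and restricted and by -0.58 ± 0.22 (SE, limma adjusted p = 0.904) between restricted and normal muscle. P4HTM, a membrane prolyl hydroxylase related to the EGLN enzymes, differed by -0.32 ± 0.13 (SE, limma adjusted p = 0.904) between restricted and normal muscle. LIMD1, a scaffold that brings EGLN enzymes and VHL together, differed by 0.39 ± 0.17 (SE, limma adjusted p = 0.904) in the same comparison.

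Glycolytic targets of HIF showed little difference between diets. Of 23 symbols 14 were on the array and 13 tested, 0 were called by limma in any comparison, and 0, 1 and 0 had an unadjusted p under 0.05 in the same order, beside a background of 5.3%, 8.83% and 4.32%. Their medians were -0.04, -0.02 and -0.03. PDK1, a kinase of pyruvate dehydrogenase, was at 5.50, 5.71, 5.49 and 5.84 in normal pools. It was at 5.47, 5.19, 5.76 and 5.59 in restricted and 5.90, 5.96, 5.66 and 5.91 in phytase pools. The phytase pools held the highest PDK1 values, and 2 normal pools and 1 restricted pool reached into their range. It differed by 0.36 ± 0.15 (SE, limma adjusted p = 0.53) between phytase and restricted muscle. SLC2A1, the glucose transporter GLUT1, differed by -0.30 ± 0.15 (SE, limma adjusted p = 0.571), opposite in sign to PDK1. LDHA, lactate dehydrogenase A, differed by -0.07 ± 0.05 (SE, limma adjusted p = 0.91) between restricted and normal muscle.

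Other HIF targets, 33 symbols of feedback, matrix, iron and survival genes, had 23 on the array and 19 tested. Limma called 0 of 19 in each comparison, with 0, 2 and 0 at an unadjusted p under 0.05 (background 5.3%, 8.83% and 4.32%), and medians of 0.06, -0.02 and -0.002. KDM3A, a histone demethylase induced by hypoxia in mammals, was at 5.95, 5.78, 6.31 and 5.95 in normal, 5.19, 5.76, 5.81 and 5.90 in restricted and 6.57, 6.26, 6.29 and 5.90 in phytase pools. Phytase pool 4 equalled the highest restricted pool, and the other phytase pools lay above all restricted ones. It differed by 0.59 ± 0.19 (SE, limma adjusted p = 0.519) between phytase and restricted muscle. ADM, the vasodilator peptide adrenomedullin, ran the other way. It was at 5.39, 5.27, 4.80 and 5.23 in normal, 5.68, 5.36, 5.48 and 5.33 in restricted and 5.11, 4.74, 5.00 and 5.24 in phytase pools, with every phytase pool below every restricted pool. Pools were fully separate in that comparison for 1 of 19 genes of the list, against a background of 3.67%. ADM differed by -0.44 ± 0.16 (SE, limma adjusted p = 0.519) between phytase and restricted muscle. NDRG1, a stress-responsive gene, differed by 0.45 ± 0.23 (SE, limma adjusted p = 0.904) between restricted and normal muscle.

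Relatives of VEGFA and ANGPTL4 and their receptors had 11 of 19 symbols on the array, 5 of them under the brightness limit and 6 tested. Limma called 0 of 6 in each comparison, and 0, 0 and 1 had an unadjusted p under 0.05, against 5.3%, 8.83% and 4.32% of all tested transcript clusters. KDR, the main signalling receptor of VEGFA, was at 3.43, 3.11, 3.11 and 2.98 in normal, 3.36, 3.59, 3.50 and 2.97 in restricted and 3.43, 3.56, 3.43 and 3.51 in phytase pools. Phytase pools of KDR were close together at the top of the normal range or above it. KDR differed by 0.33 ± 0.15 (SE, limma adjusted p = 0.984) between phytase and normal muscle, and it is also among the endothelial markers. ANGPTL2, a secreted relative of ANGPTL4, differed by 0.70 ± 0.34 (SE, limma adjusted p = 0.567) between phytase and restricted muscle. Restricted pool 1 of ANGPTL2 was far below the rest at 4.80 against 6.13 to 6.43 in the other restricted pools. FLT4, another VEGF receptor, went the other way, by -0.395 ± 0.19 (SE, limma adjusted p = 0.567). In that comparison 3 of the 6 genes were higher and 3 lower. The list medians were 0.09, -0.002 and 0.08 in the order used above.

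Since PPAR factors also induce ANGPTL4, genes of PPAR and fasting responses were examined, with 13 of 17 symbols on the array and 11 tested. Limma called 0 of 11 in each comparison, and 2, 1 and 1 had an unadjusted p under 0.05, where 5.3%, 8.83% and 4.32% of all tested transcript clusters did. The list medians were 0.07, -0.13 and 0.11. PDK4, a fasting-induced kinase of pyruvate dehydrogenase, was at 3.26, 3.56, 2.70 and 3.28 in normal, 3.39, 4.18, 5.32 and 4.14 in restricted and 2.99, 3.35, 4.47 and 4.02 in phytase pools. Restricted pool 3 was the highest, the pool in which ANGPTL4 was lowest on that diet. Phytase pool 3 likewise had the highest PDK4 and the lowest ANGPTL4 level of its diet. In normal muscle the genes went together, both lowest in pool 3 and highest in pool 2. PDK4 differed by 1.06 ± 0.38 (SE, limma adjusted p = 0.904) between restricted and normal muscle. PPARD, a PPAR factor of muscle, was at 4.38 to 4.70 in normal and 4.79 to 5.14 in restricted pools, which did not overlap. PPARD differed by 0.36 ± 0.14 (SE, limma adjusted p = 0.904). It was the 1 of 11 genes with fully separate pools in that comparison, against a background of 2.32%. PPARGC1A, a coactivator of mitochondrial genes, was at 2.83 to 3.31 in normal and 3.28 to 3.72 in phytase pools and differed by 0.40 ± 0.15 (SE, limma adjusted p = 0.984). Of 6 adipocyte markers on the array 5 were tested. The summed linear level of all 6 ran from 227.3 to 380.2 in normal, 337.5 to 421.9 in restricted and 262.2 to 370.4 in phytase pools. Between restricted and normal muscle all 5 were higher, with a median of 0.19 and 0 called, where 48.6% of all tested transcript clusters were higher. With phytase the markers did not move together. Between phytase and restricted muscle 1 of the 5 was higher, CD36 by 0.60 ± 0.21 (SE), and 4 were lower, PLIN1 by -0.50 ± 0.19 (SE). The 6 macrophage markers on the array, all bright enough, had summed linear levels of 820 to 1392 in normal, 931.7 to 1957 in restricted and 867.1 to 1414 in phytase pools. Most of this sum came from CD74, with a mean log2 level of 9.85. All 6 macrophage markers were higher in restricted than in normal muscle, with a median of 0.32 and 0 called. Between phytase and restricted muscle 1 was higher and 5 were lower. The background of higher transcript clusters was 48.6% and 48.3% in these comparisons. The part of these cells in the values was not tested.

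**Figure D5:**
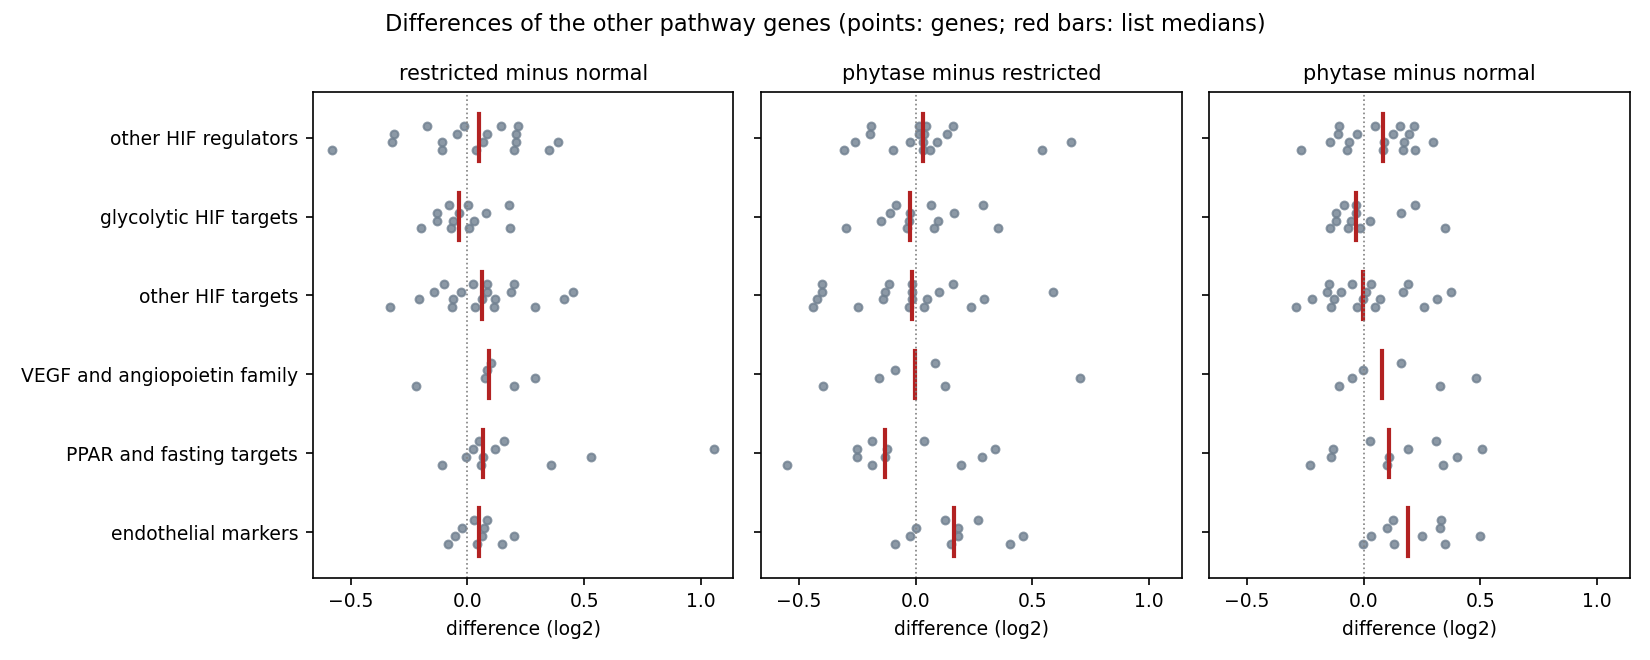
Difference in log2 level between diets for each tested gene (points) of 5 lists around HIF and of the endothelial markers, with list medians (red bars). The lists around HIF lie on both sides of 0 with medians between -0.13 and 0.11, and the endothelial markers have medians of 0.05, 0.17 and 0.19 from left to right.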

How the data were processed

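RNA of 12 breast muscle pools was hybridised to Affymetrix arrays, per the labels. The authors' deposited values are log2 levels of 20804 transcript clusters. GCRMA and Affymetrix Expression Console are named, per the submitters' processing notes, with no version or role. The base of the logarithm was taken as 2 from the values, 0.83 to 14.36. HIF1A lay under and ANGPTL4 just above the brightness limit. The number of arrays limits the precision.

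Groups came from titles, with the diet in the source names. Of the named genes 8 matched the platform annotation and all 8 had the same symbol in RefSeq by gene ID. The build behind the array was not given in the sources used here, so no coordinates are given. The 12482 brightest transcript clusters, from the 40th percentile of the means upward, were fitted in limma 3.58.1 (R 4.3.3) with 1 mean per diet, an intensity trend and Benjamini-Hochberg adjustment at 0.05. The code of the fit was checked on simulated data, which has no bearing on the calls or differences reported here. Correlation p-values are two-sided and exact, from all 13824 reorderings of pools within diets. Limma p-values set a difference only against the spread between these pools. For each gene that spread is drawn toward the spread of transcript clusters of like brightness. It may be in part technical.

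The members and lists were chosen with earlier results of these data known. All members are named; from other lists, the 3 genes with the smallest unadjusted p per comparison could be named, with the brightest transcript cluster per gene, and marker genes beside them. Likeness was named for the 4 highest r. The alternatives changed the filter, the normalization, the prior or the array weights, added an offset of 16 or a replicate block, or left out 1 array. Leaving out the arrays with HINTW signal was added after seeing the data.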

Additional observations from a re-analysis of the deposited data

Results flagged for a closer look

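Of 54 sets of 4 pools examined, 7 held a pool whose gap to its nearest neighbour, as a share of the range of the set, passed Dixon's critical value, and chance gives about 1 in 20. EPAS1 in normal pool 1 was at 7.09, with the next at 7.43. VHL in normal pool 4 was at 4.71, with the next at 4.95. The other pools stood apart in the mean deviation of a gene list: restricted pool 1 in other HIF targets at -0.176 (next 0.081 or higher), phytase pool 3 in PPAR and fasting targets at 0.349 (next -0.077 or lower), normal pool 3 in endothelial markers at -0.14 (next -0.076), phytase pool 1 in macrophage markers at -0.461 (next 0.091), and restricted pool 4 in skeletal muscle markers at -0.1 (next 0.03).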

How the results depend on the processing

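The counts of 0 called transcript clusters, overall and in each list around HIF, stayed at 0 in all 22 alternatives. The counts at an unadjusted p under 0.05 were 662 between restricted and normal, 1102 between phytase and restricted, 539 between phytase and normal muscle, and 745 in the test over all diets. With single arrays left out they ran from 440 (without normal replicate 3) to 1073, from 696 (without phytase replicate 2) to 1727, from 327 (without phytase replicate 2) to 687 (without phytase replicate 4), and from 495 (without phytase replicate 2) to 1233, where 1073, 1727 and 1233 were reached without restricted replicate 3. Without the filter, with all 20804 transcript clusters tested in place of 12482, the first was 1040 and the third 882. The third was 341 with the stricter filter, which tests fewer transcript clusters, and 895 with array weights. Counts under different filters are therefore not shares of the same number. Without the 4 arrays with HINTW signal the second was 587 and the third 839. The labels do not say whether the replicate numbers pair the samples. Deviations of same-numbered pools correlated at -0.162 to 0.178 (median 0.02), and those of pools with different numbers at -0.349 to 0.33 (median 0.008). With a replicate block the counts were 623, 1072, 518 and 722, with 0 called. EGLN3 kept its sign in all alternatives between phytase and restricted muscle, down to 0.38 with an offset of 16, and between restricted and normal muscle, where the offset gave -0.29. Uncalled differences of ANGPTL4 (every comparison), ARNT (phytase minus normal), EPAS1 (restricted minus normal), HIF1AN and VHL (phytase minus restricted) changed sign in at least 1 case of an array left out, and those of VEGFA (restricted minus normal) and HIF1A (phytase minus restricted) without the arrays with HINTW signal. The cause was not tested. ANGPTL4 and HIF1A did not pass the stricter filter. HIF1A and ANGPTL4 lie near or under the brightness limit, where signal over background limits the precision.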
